A study of Mus musculus with 6 samples.

Results

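Phlda1 and 9 other genes that restrain signaling from growth factor receptors through RAS and the ERK kinases were followed in liver tumors of WT and Nr2e3-/- mice. The 10 genes are Phlda1, the dual-specificity phosphatases Dusp4, Dusp5 and Dusp6, the Sprouty genes Spry1, Spry2 and Spry4, the Spred genes Spred1 and Spred2, and the receptor inhibitor Errfi1. They were taken by symbol from a count table of 24063 genes, each of the 10 symbols matched 1 row, and all 10 were among the 13572 genes with enough counts to be tested. The set was selected on the counts of these same libraries, Phlda1 having been lower in the Nr2e3-/- tumors while Egfr, the epidermal growth factor receptor, was higher. The differences of Phlda1 and Egfr are therefore given below as descriptions without a test, and the comparison rests on the 9 other genes.

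RNA had been sequenced from DEN-induced liver tumors of 3 WT mice (genotype NR2E3+/+) and 3 Nr2e3-/- mice, 1 library per mouse. All 6 animals were labelled as C57BL/6 males and had been injected intraperitoneally with diethylnitrosamine (DEN, a carcinogen activated by hepatocytes) at 25 mg per kg at 15 days of age and examined at the 24-week time point. Nr2e3 encodes an orphan nuclear receptor, and the labels name no cell type to which its loss was restricted. Tumor tissue holds hepatocytes and other cells, which cannot be told apart as the origin of a difference. For its liver injury experiment the study used purchased C57BL/6J mice as WT, and its Nr2e3-/- line had been generated earlier. Were the tumor-bearing WT mice of the same origin, breeding source and genotype could not be told apart.

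Growth factors bound to receptor kinases such as EGFR load RAS with GTP, and RAS starts the RAF, MEK and ERK kinase cascade. ERK in turn induces genes whose products damp the pathway, so their transcripts are often read as a gauge of its output. The dual-specificity phosphatases remove phosphate from ERK, Sprouty and Spred proteins act between the receptor and RAF, and ERRFI1 (also called MIG6) binds the EGFR kinase domain and keeps hepatocyte proliferation in check. PHLDA1 is a small pleckstrin homology domain protein that is induced by ERK signaling and has been described as an inhibitor of ERBB receptors and AKT.

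Total counts were between 25250090 and 28690279 in the WT libraries and between 15376261 and 28336305 in the Nr2e3-/- libraries. Nr2e3 had 0 counts in all 6 libraries, which allows up to 0.105 to 0.195 CPM (counts per library total of 1000000, at 3 counts in each library). Its transcript therefore gave no check of the genotypes. The defining hepatocyte markers were abundant in every library, with a summed level of 151000 to 184000 CPM in WT and 138000 to 158000 CPM in Nr2e3-/- tumors. Nr2e3-/- replicate 1, which had the lowest total of the 6 libraries (15376261 counts), stood apart from the other 2 libraries of its group. Without it, the number of genes with an adjusted p-value under 0.05 (edgeR) went from 13 of 13572 to 3022 of 13840, and results are given with and without this library where it matters. In bulk tumor RNA, fewer cells of a type and less RNA per cell cannot be told apart.

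The RefSeq promoter table for GRCm38.p6 held 8 entries for 7 of the 10 genes, and none was found for Phlda1, Dusp4 and Spry4. Windows from 250 bases before to 50 bases after the start were searched on both strands for motifs of factors that act downstream of ERK or of growth factors. The CIC motif TGAATGAA was present in 1.3% of all 32851 promoters, the ETS motif CCGGAAGT in 3.89%, the AP-1 motif TGANTCA in 7.81% and the cyclic AMP response element (CRE) TGACGTCA in 1.79%. None of the 8 entries held the first 3 motifs in these letters, and 1 entry, for Errfi1, held the CRE. Other spellings of these motifs were not searched, so sites for the same factors may be present. The CArG box, the motif of serum response factor, was added after the sequences had been seen. It was present in 1.63% of promoters, and Dusp5 held 2 adjacent copies, where 0.0183% of promoters (6 in all) held 2 or more. No letters of one motif overlapped those of another. The upstream bases of these 2 genes are shown with the matches in capitals. Those of Spry1 and Spry2 follow, the members apart from Phlda1 with the lowest p-values, which held no match to the letters searched. All are written 5′ to 3′ on the strand of the gene, and only bases outside the gene's annotated exons are printed. The Errfi1 stretch precedes the second of its 2 RefSeq starts and so lies inside the gene, in the first intron of the longer annotated transcript. They lie at chr19:53528895-53529108 (plus strand), chr4:150854820-150855069 (plus), chr3:37639697-37639946 (plus) and chr14:105896820-105897069 (minus).
Dusp5: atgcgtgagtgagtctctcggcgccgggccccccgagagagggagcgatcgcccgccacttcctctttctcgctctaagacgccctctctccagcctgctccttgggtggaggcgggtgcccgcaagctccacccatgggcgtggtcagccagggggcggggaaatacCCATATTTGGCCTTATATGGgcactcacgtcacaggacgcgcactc
Errfi1: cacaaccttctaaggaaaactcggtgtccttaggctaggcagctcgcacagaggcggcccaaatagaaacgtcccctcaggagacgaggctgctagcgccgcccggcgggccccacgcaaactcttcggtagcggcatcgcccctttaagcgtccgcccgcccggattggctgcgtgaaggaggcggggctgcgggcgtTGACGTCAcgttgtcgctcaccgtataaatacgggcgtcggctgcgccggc
Spry1: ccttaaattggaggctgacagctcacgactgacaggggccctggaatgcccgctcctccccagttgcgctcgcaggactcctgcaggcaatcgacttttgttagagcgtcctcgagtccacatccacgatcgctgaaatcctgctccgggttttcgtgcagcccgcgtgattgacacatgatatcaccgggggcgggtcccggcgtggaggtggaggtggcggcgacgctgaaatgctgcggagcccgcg
Spry2: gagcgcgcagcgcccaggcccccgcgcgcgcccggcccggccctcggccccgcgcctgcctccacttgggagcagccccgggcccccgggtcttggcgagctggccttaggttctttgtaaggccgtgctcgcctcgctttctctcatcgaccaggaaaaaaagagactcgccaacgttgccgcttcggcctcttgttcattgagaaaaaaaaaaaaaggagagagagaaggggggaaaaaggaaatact
The CArG boxes of Dusp5 began 82 and 72 bases before its RefSeq start, and the CRE of Errfi1 began 51 bases before its start. A match is a description of letters, and no binding was measured in these tumors.

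Phlda1 was lower in every Nr2e3-/- tumor than in every WT tumor. Its level was 102, 95.85 and 106 CPM in WT replicates 1, 2 and 3 and 41.4, 31.8 and 44.8 CPM in Nr2e3-/- replicates 1, 2 and 3. The WT libraries lay close together and the groups were far apart, with means of 101 ± 5.10 and 39.3 ± 6.75 CPM (SD, n = 3 each), a ratio of 0.388. The log2 fold change was -1.37 ± 0.145 (SE), and it stayed between -1.47 and -1.23 under 13 other ways of processing the counts. Phlda1 (chromosome 10, 111506286 to 111508645, plus strand, GRCm38) was a moderately expressed gene, at 51.9 ± 2.62 RPKM (normalized CPM per kilobase of annotated exon) in WT. An antisense gene, Gm28592, shares 727 exon bases with it, and since the strand setting of the counting is not known, reads of the pair cannot be told apart.

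The 3 ERK phosphatases did not separate the groups. Dusp6, the cytoplasmic phosphatase that acts on ERK and a standard transcript of ERK output, was at 74.4, 73.6 and 65.6 CPM in the WT replicates and at 57.7, 79.4 and 45.3 CPM in the Nr2e3-/- replicates. Nr2e3-/- replicate 2 was above all WT tumors and the other two were below them. The log2 fold change was -0.23, with a 95% interval from -0.70 to 0.24 (adjusted p = 0.523, edgeR).

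Dusp5, a nuclear phosphatase that anchors ERK, was weakly expressed, at 9.64, 7.78 and 4.65 CPM in WT and 1.92, 6.91 and 3.84 CPM in Nr2e3-/- tumors. Its mean was lower in Nr2e3-/- tumors, but replicate 2 lay inside the WT range (log2 fold change -0.77, 95% interval -1.85 to 0.30, adjusted p = 0.357, edgeR). Dusp4, a nuclear phosphatase of ERK and JNK, was at 14.1, 9.54 and 5.62 CPM in WT, and the Nr2e3-/- values of 7.08, 11.4 and 7.57 CPM fell inside the WT range. Its log2 fold change was -0.16 (95% interval -0.98 to 0.66, adjusted p = 0.809, edgeR), and without WT replicate 1 it was 0.20. In all 3 phosphatase genes Nr2e3-/- replicate 2 had the highest value of its group. Dusp4 lies on chromosome 8 (34807297 to 34819894), Dusp5 on chromosome 19 (53529109 to 53542431) and Dusp6 on chromosome 10 (99263231 to 99267489), all on the plus strand. An antisense gene shares 547 exon bases with Dusp5.

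The 3 Sprouty genes had lower means in Nr2e3-/- tumors, and none of the 3 passed an adjusted p-value of 0.05 in edgeR with all 6 libraries. Sprouty proteins are membrane-associated inhibitors that are induced by growth factors and block signaling toward RAS and RAF. Spry1 was at 7.99, 6.83 and 7.25 CPM in WT replicates and 4.63, 4.53 and 3.41 CPM in Nr2e3-/- replicates. Every Nr2e3-/- tumor was below every WT tumor, with means of 7.36 ± 0.584 and 4.19 ± 0.680 CPM (SD, n = 3). The log2 fold change was -0.81 ± 0.181 (SE), with adjusted p = 0.102 in edgeR. An exact permutation test of the 6 values gave p = 0.1, the smallest that 3 against 3 libraries can give.

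Spry2 was the least expressed of the 10 genes in CPM, at 5.68, 4.13 and 2.95 CPM in WT and 3.11, 1.89 and 1.14 CPM in Nr2e3-/- tumors. The groups overlapped by 1 library, Nr2e3-/- replicate 1 being just above WT replicate 3, and their counting intervals also overlapped (95%, 2.29 to 4.14 and 2.35 to 3.64 CPM). The lowest value rested on 21 counts, with an exact Poisson interval of 0.703 to 1.74 CPM that covers counting error only. The log2 fold change was -1.07 ± 0.400 (SE), with adjusted p = 0.192 in edgeR.

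Spry4 was at 12.3, 15.2 and 10.1 CPM in WT and at 13.6, 6.46 and 5.41 CPM in Nr2e3-/- tumors. Replicate 1 lay inside the WT range, and the other 2 Nr2e3-/- tumors were below all WT tumors (log2 fold change -0.58, 95% interval -1.40 to 0.25, adjusted p = 0.370, edgeR). When Nr2e3-/- replicate 1 was left out, Spry4 had a log2 fold change of -1.07, Spry2 of -1.45 and Spry1 of -0.87. Their adjusted p-values were 0.018, 0.0368 and 0.0231 in edgeR. When Nr2e3-/- replicate 3 was left out instead, the values were closer to the WT level, at -0.34, -0.78 and -0.68. The adjusted p-values were then 0.696, 0.456 and 0.34 in edgeR. The summed level of the 3 genes was 26, 26.2 and 20.3 CPM in WT and 21.3, 12.9 and 9.95 CPM in Nr2e3-/- tumors. In the tumors with the lowest Sprouty sums, the summed level of 10 stellate cell and fibroblast markers was also low, at 267 and 236 CPM in Nr2e3-/- replicates 2 and 3 against 418 CPM in replicate 1 and 371 to 457 CPM in WT. In replicates 2 and 3, 7 of the 10 markers were below every WT tumor in both and 1, Tagln, was above. Of all genes tested, 38.2% in replicate 2 and 39.6% in replicate 3 were below every WT tumor, and the share in both was not counted. None of the 10 markers was at 0 in all libraries, and their part in the Sprouty values was not tested. Spry1 is on chromosome 3 (37639947 to 37644598, plus strand) and shares 710 exon bases with an antisense gene, and Spry2 is on chromosome 14 (105891947 to 105896819, minus strand).

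Spred1 and Spred2, whose products bind neurofibromin and bring it to RAS at the membrane, had mean differences of opposite sign, neither of which passed the test. Spred1 was at 36.9, 41.2 and 35.3 CPM in WT and 25.3, 124 and 65.9 CPM in Nr2e3-/- tumors. The WT tumors differed little, while Nr2e3-/- replicate 1 was below all of them and replicates 2 and 3 were above all of them. The spread within the Nr2e3-/- group was wider than the difference between the means, with a coefficient of variation of 69.3% against 8.07% in WT, where the medians over all genes tested were 18% and 9.8%. The log2 fold change was 0.93 ± 0.486 (SE; 95% interval -0.21 to 2.07, adjusted p = 0.305, edgeR). Without Nr2e3-/- replicate 1 it was 1.34 (adjusted p = 0.015, edgeR), and without replicate 2 it was 0.27.

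The 2 tumors with high Spred1 also held more RNA of neutrophil markers and of Spp1, which encodes osteopontin. All 4 neutrophil markers found, of 5 listed, were above every WT tumor in both, with sums of 23.9 and 15 CPM against 2.45 CPM in Nr2e3-/- replicate 1 and 1.7 to 3.25 CPM in WT. Spp1 was at 410 and 171 CPM in Nr2e3-/- replicates 2 and 3, against 56.3 CPM in replicate 1 and 107, 46 and 47.1 CPM in WT. The bile duct list, to which Spp1 belongs, did not move as a whole. Of its 7 genes, Spp1 and Epcam were above and Sox9 and Krt23 below every WT tumor in both, and without Spp1 the list summed to 21.2 and 16.3 CPM against 15.4 to 31.2 CPM in WT. The share of all genes above, or below, every WT tumor in both replicates was not counted. No marker of either list was at 0 in all 6 libraries, and their part in the Spred1 difference was not tested.

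Spred2 was at 9.02, 9.13 and 8.95 CPM in WT and 8.41, 7.57 and 5.73 CPM in Nr2e3-/- tumors. Every Nr2e3-/- tumor was below every WT tumor, although the first by little, and the difference did not pass the test (log2 fold change -0.32 ± 0.173 SE, adjusted p = 0.315, edgeR). The ratio of Spred1 to Spred2 counts was 4.09, 4.51 and 3.95 in WT and 3.01, 16.4 and 11.5 in Nr2e3-/- tumors, so replicate 1 was below and the other 2 above all WT tumors. Spred1 lies on chromosome 2 (117121374 to 117182279) and Spred2 on chromosome 11 (19924375 to 20024026), both on the plus strand.

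Errfi1 differed little between the groups. It was at 1333, 1401 and 1422 CPM in WT and 1342, 1433 and 1481 CPM in Nr2e3-/- tumors, of which replicates 2 and 3 were slightly above every WT tumor. The log2 fold change was 0.03 ± 0.115 (SE), with a 95% interval from -0.24 to 0.31 (adjusted p = 0.878, edgeR). Under upper quartile normalization, which moved the median of all genes by -0.09 on the log2 scale, the value was -0.05. Errfi1 was by far the most abundant of the 10 transcripts, with 83.1% to 85.2% of their counts in WT and 83.9% to 89.2% in Nr2e3-/- tumors. It lies on chromosome 4 (150853919 to 150868892, plus strand).

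Egfr, the receptor that ERRFI1 inhibits, was at 551, 281 and 526 CPM in WT and 835, 1569 and 1519 CPM in Nr2e3-/- tumors, all above WT (log2 fold change 1.53 ± 0.333 SE). The count ratio of Errfi1 to Egfr was 2.42, 4.98 and 2.7 in WT and 1.61, 0.913 and 0.975 in Nr2e3-/- tumors. The ratio of Egfr to Phlda1 was 5.4, 2.93 and 4.96 in WT and 20.1, 49.4 and 33.9 in Nr2e3-/- tumors. Both ratios contain genes chosen for their difference and describe its size.

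**Figure D1:**
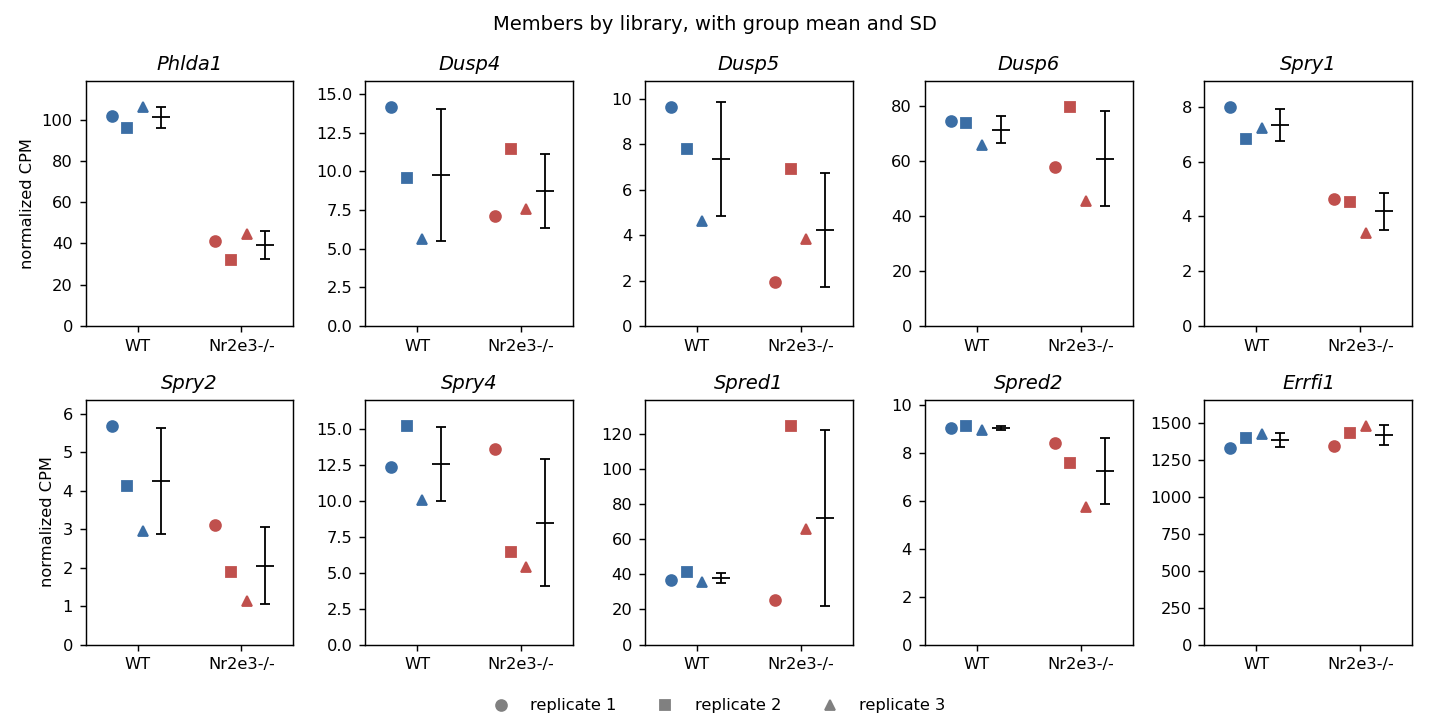
Normalized CPM of the 10 genes in each library (y axis from 0, separate scale per gene), with circles, squares and triangles for replicates 1, 2 and 3 and a black bar for the group mean with its SD (n = 3). Phlda1, Spry1 and Spred2 do not overlap between WT and Nr2e3-/- tumors, and Spred1 spans 25.3 to 124 CPM within the Nr2e3-/- group.

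Per kilobase of annotated exon, the order of the WT levels was Errfi1 (428 RPKM), Phlda1 (51.9), Dusp6 (25.5), Spred1 (5.58), Dusp4 (3.56), Dusp5 (2.97), Spry4 (2.64), Spry1 (2.53), Spry2 (2.04) and Spred2 (2.03). The 4 highest were each clear of the next by more than their SD, and the 6 lowest spanned 2.03 to 3.56 RPKM, where neighbors did not differ beyond their spread. In Nr2e3-/- tumors Dusp6 (21.7 ± 6.16 RPKM) and Phlda1 (20.2 ± 3.46 RPKM) were level with each other.

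Over all 10 genes, 8 had a negative and 2 a positive log2 fold change, with a median of -0.45, or -0.32 without Phlda1. The median over all 13572 genes tested was 0.01. With adjusted p under 0.05 in edgeR, 0 of the 9 genes other than Phlda1 were called, where the share over all genes was 0.0958%. At an unadjusted p under 0.05, 2 of the 9 (22.2%) were called, Spry1 and Spry2, both lower, against 21.5% of all genes in either direction and 9.72% lower. The share called in either direction was thus near the background. DESeq2 called 1 of the 9 at adjusted p under 0.05 (Spry1, 11.1%), against 5.81% of all genes it tested, and limma-voom called 3 (Spry1, Spry2 and Spry4, 33.3%), against 17.4%. The groups did not overlap in 2 of the 9 (22.2%), Spry1 and Spred2, both lower, against 26.8% of all genes in either direction and 12.9% lower.

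**Figure D2:**
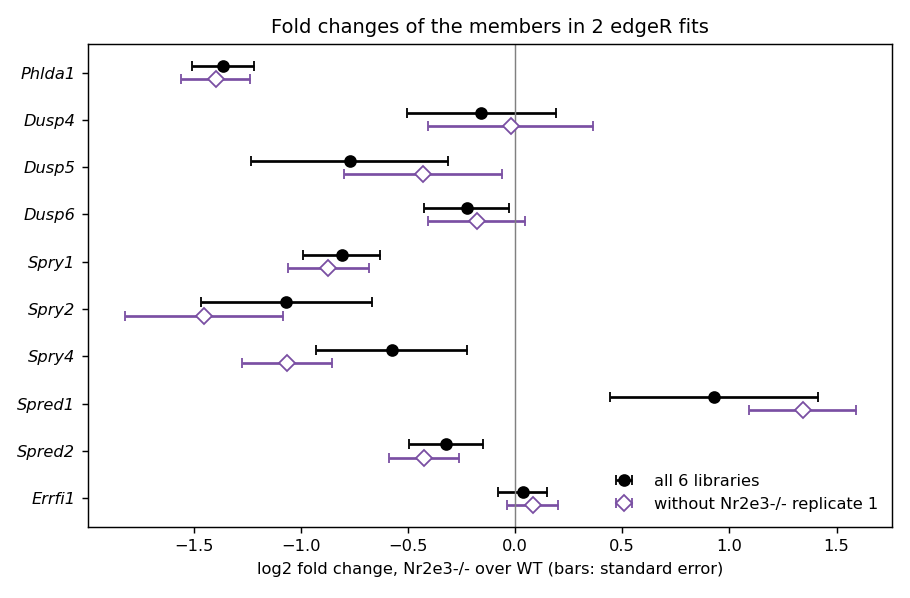
Log2 fold change of Nr2e3-/- over WT tumors (x axis) with its standard error for the 10 genes, fitted by edgeR with all 6 libraries (filled circles) and without Nr2e3-/- replicate 1 (open diamonds). Leaving this library out moved Spry2, Spry4 and Spred1 farther from 0 and Dusp5 closer to it, while Phlda1 stayed at -1.40.

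Without Nr2e3-/- replicate 1, 4 of the 9 genes (44.4%) had an adjusted p under 0.05 in edgeR, namely Spry1, Spry2 and Spry4 lower and Spred1 higher, against 21.8% of all genes. At an unadjusted p under 0.05 the count was 5 of the 9, Spred2 being the fifth, against 37.7% of all genes. Dusp4, Dusp5, Dusp6 and Errfi1 had adjusted p-values of 0.974, 0.433, 0.595 and 0.644 in that fit. Leaving out Nr2e3-/- replicate 2 instead, edgeR called 0 of the 9 after adjustment, against 0.131% of all genes. At an unadjusted p under 0.05 it called 3, against 19% of all genes. Dusp5 was then at -1.33 and Dusp6 at -0.47 (adjusted p = 0.195 and 0.19, edgeR). Leaving out replicate 3, the counts were 0 and 1, against 0% and 12.2% of all genes.

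The 3 Nr2e3-/- tumors were ordered differently by gene group. Replicate 2 was the highest of the 3 for Dusp4, Dusp5, Dusp6 and Spred1. Replicate 1 was the highest for Spry1, Spry2, Spry4 and Spred2, and replicate 3 was the lowest for these same 4 genes. Relative to the WT mean, replicate 1 was below for 8 of the 9 genes other than Phlda1, replicate 2 for 5 and replicate 3 for 7, where 51.6%, 50.1% and 52.3% of all genes tested were below. Replicate 1 was below all WT tumors for 5 of these 9, replicate 2 for 4 and replicate 3 for 6, against 33.1%, 38.2% and 39.6% of all genes. Spry2 spanned -1.78 to -0.39 and Spred1 -0.58 to 1.72 in the Nr2e3-/- tumors, as log2 differences from the WT mean, whereas Phlda1 was between -1.67 and -1.17.

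**Figure D3:**
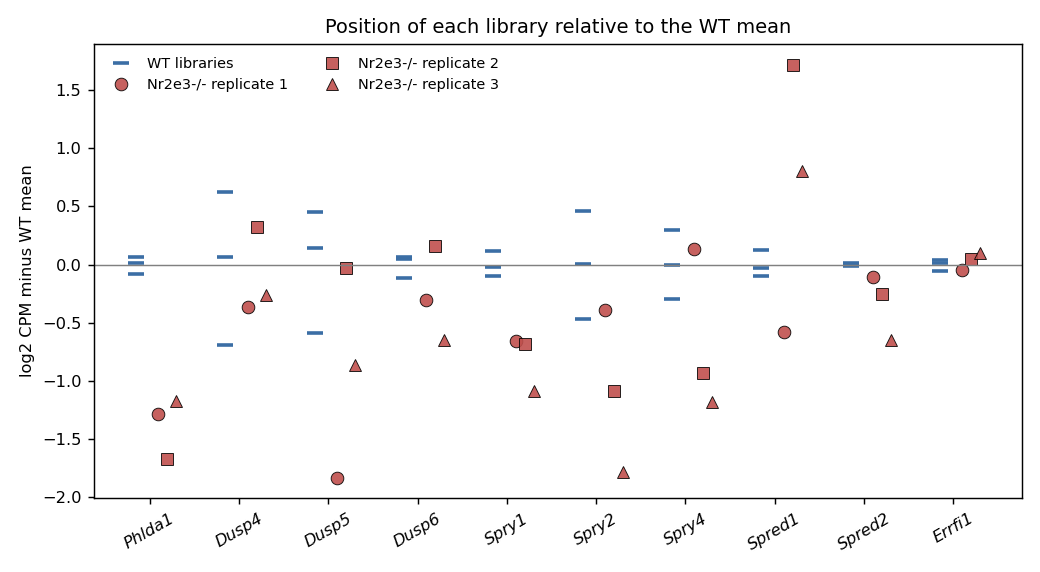
Log2 CPM of each library minus the WT mean (y axis) for the 10 genes, with bars for the 3 WT libraries and a circle, square and triangle for Nr2e3-/- replicates 1, 2 and 3. Among the Nr2e3-/- tumors replicate 1 is highest and replicate 3 lowest for the Sprouty genes and Spred2, Spred1 lies on both sides of the WT mean, and Phlda1 is between -1.67 and -1.17 in all 3 tumors.

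Across the 6 libraries, the log2 levels of Spry2 were most alike to those of Spred2 (Pearson r = 0.914), Spry1 (r = 0.892) and Spry4 (r = 0.89), and most opposed to those of Errfi1 (r = -0.85). Of the 45 pairs of the 10 genes, 31 had a positive r. These values describe 6 libraries that share the genotype difference and the position of Nr2e3-/- replicate 1. The 5 other genes most like Phlda1 were Entpd5, an endoplasmic reticulum nucleotidase (r = 0.9991), Mapk15, an atypical MAP kinase (r = 0.9925), Wdr6 (r = 0.9906), Vps11, a subunit of vesicle tethering complexes (r = 0.9874), and Npepl1 (r = 0.9857). An r over 0.9 with Phlda1 was found for 383 genes, 2.82% of those tested. The group means fell from 359 to 248 CPM for Entpd5 and from 11.8 to 6.29 CPM for Mapk15. Their log2 fold changes of -0.54 and -0.92 were smaller in size than that of Phlda1. Both were picked for their likeness to a gene selected on its difference, so their own differences are given without a test.

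The other genes of the pathway were grouped in 5 lists. In edgeR with all 6 libraries, 0 genes of each had an adjusted p under 0.05, Egfr left aside. Over all genes tested, 21.5% had an unadjusted p under 0.05 in edgeR. At an adjusted p under 0.05, DESeq2 called 5.81% of all genes and limma-voom 17.4%. Among the 13 receptor kinases other than Egfr, 1 was higher and 1 lower at an unadjusted p under 0.05 (median log2 fold change -0.11, range -0.75 to 0.69). The insulin receptor gene Insr was lower in every Nr2e3-/- tumor, at 155, 158 and 144 CPM against 218, 204 and 215 CPM in WT (log2 fold change -0.48, adjusted p = 0.0963, edgeR). DESeq2 called 1 of the 13 at adjusted p under 0.05 and limma-voom 3. Of 12 receptor ligands tested, 1 was higher and 1 lower at an unadjusted p under 0.05 (16.7% called, median -0.01). Nrg4, a ligand of ERBB4, was at 34.9, 28.3 and 29 CPM in WT and 52.5, 122 and 100 CPM in Nr2e3-/- tumors, all above WT (log2 fold change 1.58, adjusted p = 0.093, edgeR). DESeq2 called 1 ligand and limma-voom 2.

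Among 27 adaptors and members of the RAS-ERK cascade, 3 were higher and 3 lower at an unadjusted p under 0.05 (22.2% called, median 0.12). After adjustment, DESeq2 called 1 and limma-voom 4. Grb2, the adaptor between receptors and the RAS activator SOS, was at 30.6, 35.9 and 35.9 CPM in WT and 42.8, 51.9 and 50.5 CPM in Nr2e3-/- tumors (log2 fold change 0.50, adjusted p = 0.111, edgeR). The docking protein gene Gab1 (-0.34), Mapk3, which encodes ERK1 (-0.28), and Rps6ka1, which encodes the ERK substrate RSK1 (-0.65), had log2 fold changes below 0 without overlap between the groups, with adjusted p-values of 0.183, 0.184 and 0.174 in edgeR.

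Of 17 genes known to respond to ERK outside the 10, 13 were tested. At an unadjusted p under 0.05, 3 were higher and 2 lower (38.5% called, median 0.22, range -0.94 to 2.39). Those without overlap were the immediate early gene Ier2, at -0.32 on the log2 scale (adjusted p = 0.186), and Mcl1, an inhibitor of apoptosis, with 0.48 (adjusted p = 0.190, both edgeR). DESeq2 called 1 of the 13 and limma-voom 2. The 12 tested relatives of the 10 genes were other Dusp, Phlda and Spred genes and further inhibitors of the pathway. Of these, 0 were higher and 1 lower at an unadjusted p under 0.05 (8.33% called, median -0.09). This was Dusp1, a nuclear phosphatase of stress kinases and ERK, at 32.6, 32.8 and 28.3 CPM in WT and 22.6, 26.2 and 18.5 CPM in Nr2e3-/- tumors (log2 fold change -0.48, adjusted p = 0.154, edgeR). DESeq2 called 0 of the relatives and limma-voom 1. The counts of the lists also depended on Nr2e3-/- replicate 1. With this library left out, edgeR called 4 of the 13 receptor kinases other than Egfr at an adjusted p under 0.05, against 21.8% of all genes. It called 2 of 12 ligands (16.7%), 4 of 27 adaptors and cascade members (14.8%) and 3 of 13 ERK-responsive genes (23.1%), all of them higher. Of the 13 relatives tested in that fit it called 0.

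**Figure D4:**
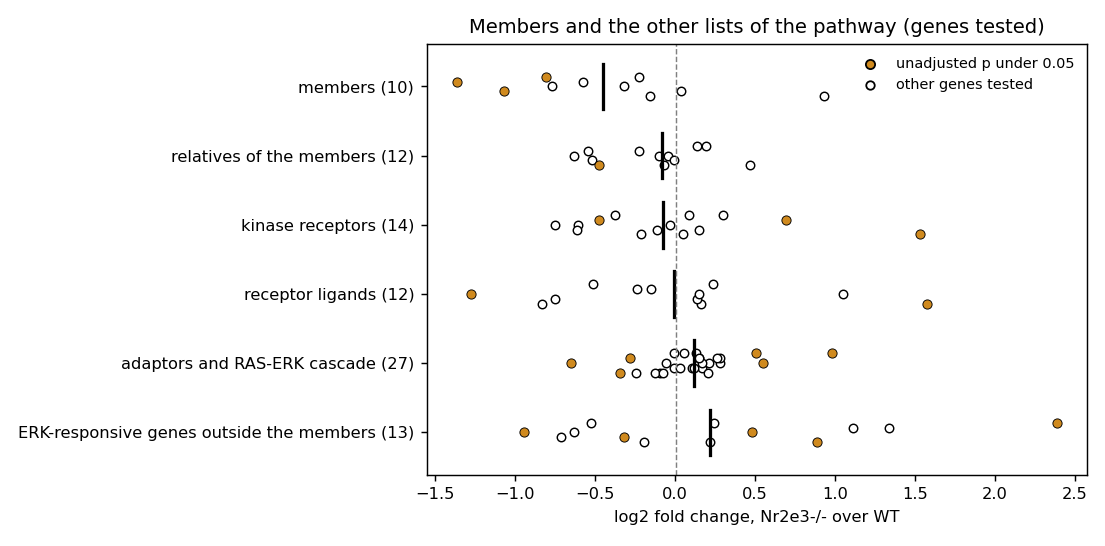
Log2 fold change of Nr2e3-/- over WT tumors (x axis) for the genes tested in each list (Phlda1 and Egfr, selected on their difference, included), with filled points for an unadjusted p under 0.05 (edgeR), black bars for list medians and a dashed line for the median of all genes tested. The 10 genes have a median of -0.45, and the medians of the other lists lie between -0.09 and 0.22.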

How the data were processed

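RNA-seq of liver tumors from 3 WT and 3 Nr2e3-/- mice was used, with groups from the genotype in the labels and dose, age and time point from the paper. Per the paper and labels, the authors aligned single-end TruSeq reads to mm10 with TopHat and deposited raw counts per gene from featureCounts. Versions, annotation and strand setting are not given in the sources used here. Their normalized table (6 columns) and their table of log2 fold changes and p-values were not used. Each library was taken as 1 replicate, and p-values measure the spread between these mice.

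Genes entered by filterByExpr (at least 10 counts, with a total of 15). TMM factors and the quasi-likelihood F test of edgeR 4.0.16 in R 4.3.3 were used, two-sided, with Benjamini-Hochberg adjustment over all genes tested. The script was tested on simulated data. CPM are TMM-normalized, log2 CPM used a prior count of 2, and RPKM used GENCODE vM21 exon lengths. Gene positions also came from GENCODE vM21, promoters from RefSeq. Standard errors are the fold change divided by the root of F. Single genes were also tested by exact permutation, two-sided (smallest p 0.1). The alternatives changed the scaling (RLE, upper quartile), the tool (limma-voom of limma 3.58.1 with quality weights, or DESeq2 1.42.0), the filter (1 count in total, or 10 counts in each library) and the model (a replicate block), or left out 1 library at a time. Figures were drawn with matplotlib 3.10.9.

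The 10 genes, the lists and the tests were chosen with earlier results of these data known. The lists were written from memory. Named are the 10 genes, Egfr, up to 4 genes per list with unadjusted p under 0.05 and no overlap between groups, and the 5 genes most correlated with Phlda1.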

Additional observations from a re-analysis of the deposited data

How the results depend on the processing

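The number of genes with an adjusted p under 0.05 was 13 in edgeR with all libraries and depended on the processing. It was 8 with upper quartile normalization, 70 with no filter beyond 1 count, 7 with at least 10 counts in every library, 1093 with DESeq2, 2360 with limma-voom and 0 to 3022 when 1 library was left out. Genes with an unadjusted p under 0.05 numbered 2916, 4981 with limma-voom and 1693 to 5220 when 1 library was left out. Of the 10 genes, 3 had an unadjusted p under 0.05, 7 with limma-voom and 2 to 6 when 1 library was left out. Phlda1, selected on its difference, is 1 of them throughout, so the counts for the 9 others were 2, 6 and 1 to 5. The median log2 fold change of all 10 genes, Phlda1 included, kept its sign throughout. Values of single genes changed sign only for Dusp4, which lay between -0.44 and 0.20 when 1 library was left out (0.20 without WT replicate 1), and for Errfi1, to -0.052 with upper quartile normalization. The deviations of same-numbered libraries correlated at -0.08, 0.22 and 0.02, and those of differently numbered libraries at -0.265 to 0.225. With 3 libraries per group these values cannot decide whether the replicate numbers pair the samples. With the replicate block, edgeR called 0 genes after adjustment and 2438 at an unadjusted p under 0.05, 3 of them among the 10 genes (2 without Phlda1), whose median was -0.50. Outlier checks were not made in groups of 3. Depth limits Spry2 most, with 21 counts in 1 library, and the cause of these changes was not tested.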
